A study of Mus musculus with 9 samples.

Results

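AM73, a compound known here only by its code name, was compared with its solvent DMSO in cultured mouse brown fat cells. The comparison holds 6 of the 9 arrays of the series, 3 with AM73 and 3 with DMSO, and covers 30860 genes, each represented by the transcript cluster with the highest mean over the 9 arrays. Fully differentiated brown fat cells of the C57BL/6 strain received 10 µM AM73 or DMSO for 8 h, and the remaining 3 arrays, of cells given 10 µM AM80 for the same time, entered the fit for its estimate of the spread and are used below for side-by-side values. By its title the series concerns chemicals that activate PGC-1α, a coactivator encoded by Ppargc1a that drives mitochondrial and heat-producing genes. Per the labels the replicates are technical, so the p-values measure only the spread between these arrays, and a group may hold RNA of a single culture. No genotype, transgene or other agent is given for any group. In bulk RNA, a change in the share of cells that express a gene and a change in the RNA per cell cannot be told apart.

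Brown fat cells burn fuel to make heat, through uncoupling protein 1 in the inner mitochondrial membrane. Cells sense oxygen through the EGLN prolyl hydroxylases, which use oxygen, iron and 2-oxoglutarate to mark the alpha subunits of the hypoxia-inducible factor HIF for destruction by the VHL ubiquitin ligase. When these enzymes slow, HIF binds short ACGTG or GCGTG elements near its target genes, among them glucose transporters, lactate export, pyruvate dehydrogenase kinase and the genes of EGLN enzymes themselves. The collagen prolyl hydroxylases and the jumonji histone demethylases are enzymes of the same chemical family.

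Values below are log2 expression values on the array and differences are AM73 minus DMSO on that log2 scale. A gene is called where limma's adjusted p, Benjamini-Hochberg over all 30860 genes, was under 0.05. Within the DMSO and AM73 groups, Pearson correlations between arrays across genes, whose values are not independent, lay between 0.986 and 0.992. DMSO replicate 3 stood apart from the other DMSO and AM73 arrays. Principal components were computed with the AM80 arrays included, and component 1 held 58.7% of that variance. The score of DMSO replicate 3 on this component was 2.51, and those of the other DMSO and AM73 arrays ran from −41.6 to −22.6. AM80 replicates 1, 2 and 3 scored 74.7, 53.7 and 31.2. The component thus ran mainly towards AM80, and DMSO replicate 3 lay nearest to the AM80 arrays. The cell type label was checked against markers. Of 14 brown fat cell markers 13 lay above the 40th percentile of gene levels (2.51), here called the dim level, and the exception was Dio2, the deiodinase that makes active thyroid hormone. The mean of these 14 genes ran from 7.38 to 7.44 on the DMSO arrays and from 7.60 to 7.72 on the AM73 arrays. That mean includes Ucp1, the called gene with the largest rise. The array medians of the 14 overlapped, 7.57 to 7.895 with DMSO and 7.615 to 7.965 with AM73. Of 10 macrophage markers 4 and of 10 endothelial markers 3 lay above the dim level. The array means of the macrophage list were 2.53 to 2.64 with DMSO and 2.37 to 2.54 with AM73, and those of the endothelial list 2.44 to 2.48 and 2.26 to 2.44. Of 14 preadipocyte and fibroblast markers 11 lay above the dim level, with array means of 4.27 to 4.36 with DMSO and 4.21 to 4.40 with AM73. Of 10 skeletal muscle markers 7 did, with means of 3.00 to 3.15 and 3.01 to 3.04. Their part in the results was not tested. Array column names end in the number 5 or 7, which no label explains: DMSO replicate 2, AM73 replicate 2 and all 3 AM80 arrays carry the 5, and the remaining DMSO and AM73 arrays the 7.

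With AM73, 37 genes were called, 0.12% of all genes tested. Of these, 32 were higher (0.104% of all genes) and 5 were lower (0.0162%), and every one of the 37 had AM73 arrays that did not overlap the DMSO arrays. Over all genes, 5.71% lay higher and 6.87% lower without overlap, and among genes above the dim level 7.60% and 8.07%. Folds of the risers ran from 1.68 to 4.48, and 36 of the 37 genes lay above the dim level. The median difference over all genes was −0.02. Just inside the threshold lay Depp1 (adjusted p = 0.0412), Ankrd37 (0.0438) and the predicted gene Gm25982 (0.0442), and among those just outside were 5330426P16Rik (0.0532) and Ccdc58 (0.0551), all in limma. In the fit without DMSO replicate 3, 34 genes were higher and 3 lower, and 25 of the 37 passed. The limma fit lost all calls (0 genes, with 2547 whose unadjusted p was under 0.05) when DMSO replicate 1 was left out. It called 1 gene without DMSO replicate 2, 3, 2 and 3 genes without AM73 replicates 1, 2 and 3, and 2 genes without AM80 replicate 2. The fits within end number 7 (2 arrays against 2) and within end number 5 (1 against 1) had 0 calls in limma, and 1804 and 1772 genes had an unadjusted p under 0.05.

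**Figure D1:**
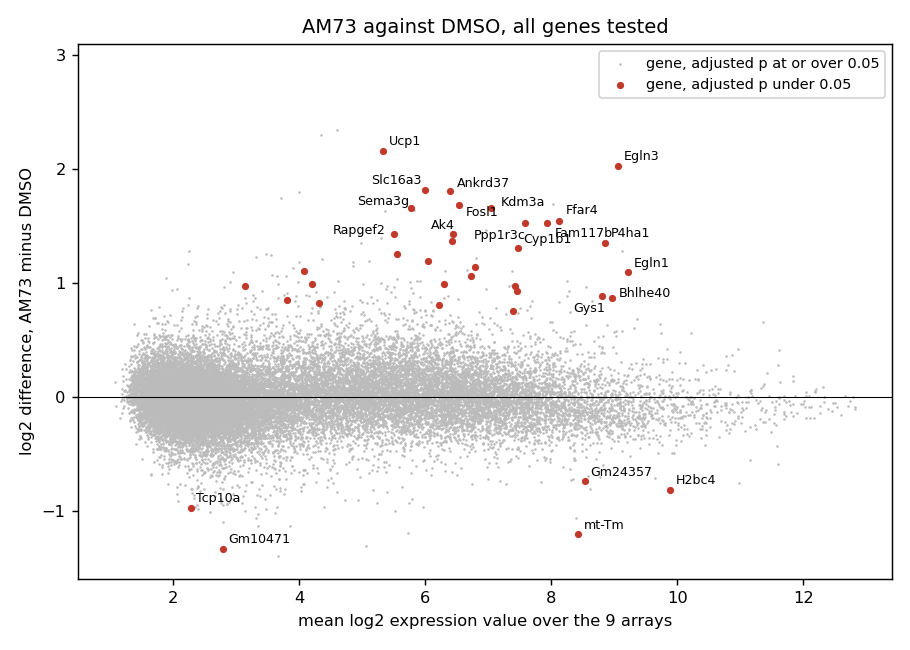
Difference AM73 minus DMSO (vertical axis, log2) against the mean log2 expression value over the 9 arrays (horizontal axis) for 30860 genes. Each point is a gene, the 37 called genes are red, and 32 of these lie above 0.

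The letters before the start of the risers' genes are shown first, since the HIF element is a short DNA motif. RefSeq promoters (GRCm38.p6) were found for 28 of the 31 risers that carry a plain symbol. The motif ACGTG was searched on both strands of the 250 bases before the transcript start and was present in 11 of the 28 (39.3%). The share was 18.5% of all 27025 genes with a promoter in the table and 23.5% of 12278 tested genes above the dim level. The related motif GCGTG was present in 60.7% of the risers, 30.9% of all genes and 45.8% of genes above the dim level. The GC box GGGCGG, a common promoter motif unrelated to the HIF element, was present in 82.1%, 35.4% and 58.3%, so more of the risers' promoters held this motif too. TGANTCA, the AP-1 element, was present in 3.57%, 7.82% and 5.79%. Promoters of 6 risers with ACGTG follow, on the gene's strand from 5′ to 3′, with ACGTG or its reverse complement CACGT in capitals. Last comes that of Ucp1, the largest riser, which holds neither of these but does hold GCGTG on its other strand. GCGTG is not marked in any of them. Matches describe letters and are no evidence of binding.
Ankrd37 (chr8:45999851-46000100, minus strand): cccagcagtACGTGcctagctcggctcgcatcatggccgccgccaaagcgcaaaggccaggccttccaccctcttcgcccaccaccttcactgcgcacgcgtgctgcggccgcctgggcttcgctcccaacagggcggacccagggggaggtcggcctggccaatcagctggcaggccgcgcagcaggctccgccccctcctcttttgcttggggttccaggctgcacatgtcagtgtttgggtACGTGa
Egln3 (chr12:54203875-54204124, minus strand): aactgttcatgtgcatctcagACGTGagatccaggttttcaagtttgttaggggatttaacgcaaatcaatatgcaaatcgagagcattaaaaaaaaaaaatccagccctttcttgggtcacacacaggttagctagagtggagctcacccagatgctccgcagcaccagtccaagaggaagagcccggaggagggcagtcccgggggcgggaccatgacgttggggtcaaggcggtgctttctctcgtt
Egln1 (chr8:124949255-124949504, minus strand): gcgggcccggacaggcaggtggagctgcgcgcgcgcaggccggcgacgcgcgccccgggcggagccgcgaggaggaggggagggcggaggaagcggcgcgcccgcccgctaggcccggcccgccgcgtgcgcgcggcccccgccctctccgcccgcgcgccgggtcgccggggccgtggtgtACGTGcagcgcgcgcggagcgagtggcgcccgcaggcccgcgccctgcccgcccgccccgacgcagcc
P4ha1 (chr10:59323046-59323295, plus strand): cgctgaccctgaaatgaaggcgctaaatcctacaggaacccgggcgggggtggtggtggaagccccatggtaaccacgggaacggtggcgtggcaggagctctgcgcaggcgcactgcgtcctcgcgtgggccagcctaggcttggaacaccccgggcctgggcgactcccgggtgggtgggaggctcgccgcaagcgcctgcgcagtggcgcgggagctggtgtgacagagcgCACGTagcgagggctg
Slc16a3 (chr11:120948817-120949066, plus strand): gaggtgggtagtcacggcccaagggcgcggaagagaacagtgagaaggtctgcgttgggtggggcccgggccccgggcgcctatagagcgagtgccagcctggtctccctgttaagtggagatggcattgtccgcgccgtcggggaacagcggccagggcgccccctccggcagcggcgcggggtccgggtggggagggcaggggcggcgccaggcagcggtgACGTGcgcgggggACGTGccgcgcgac
Ppp1r3c (chr19:36736605-36736854, minus strand): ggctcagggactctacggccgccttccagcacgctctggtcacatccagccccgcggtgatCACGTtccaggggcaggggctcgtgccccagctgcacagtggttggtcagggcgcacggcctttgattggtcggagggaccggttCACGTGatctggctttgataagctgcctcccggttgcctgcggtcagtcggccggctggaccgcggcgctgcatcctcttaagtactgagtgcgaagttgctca
Ucp1 (chr8:83290098-83290347, plus strand): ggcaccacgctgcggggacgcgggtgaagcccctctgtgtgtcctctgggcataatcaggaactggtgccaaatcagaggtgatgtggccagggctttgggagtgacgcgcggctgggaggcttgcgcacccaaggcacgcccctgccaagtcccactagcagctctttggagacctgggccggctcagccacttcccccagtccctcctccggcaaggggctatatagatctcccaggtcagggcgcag
In Ankrd37 the first letter of the motif lies 241 and 6 bases before the start. It lies 229 bases before the start in Egln3, 68 in Egln1, 16 in P4ha1, and 27 and 14 in Slc16a3. Ppp1r3c holds it at 189, 104 and 103 bases, and the last pair are the overlapping strands of a palindrome. Of the other risers with a promoter, P4ha2, Ak4, Rapgef2, Tmem131l and Homer1 also hold ACGTG, and Kdm3a, Pdk1, Higd1a, Sema3g, Cyp1b1 and Gys1 are among those that do not. Of the latter, Kdm3a, Pdk1, Higd1a and Cyp1b1 hold GCGTG, and Sema3g and Gys1 hold neither motif.

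The oxygen sensor genes are described first. Egln3, a prolyl hydroxylase gene that HIF itself drives, had values of 7.41, 7.54 and 8.34 on DMSO replicates 1, 2 and 3 and 9.90, 9.75 and 9.73 on the AM73 arrays. The AM73 arrays were tight and all lay above DMSO, of which replicate 3 was the highest. Egln3 rose by 2.03 ± 0.21 (SE, adjusted p = 0.0148 in limma, 4.08-fold, 95% interval 1.56 to 2.50). Egln1, the main oxygen sensor of most cells, went from 8.24, 8.44 and 8.76 to 9.71, 9.61 and 9.40, a rise of 1.09 ± 0.16 (adjusted p = 0.0412 in limma). Egln2, the remaining member, differed by 0.13 (adjusted p = 0.866). The other genes of the pathway lay close to 0: Hif1a, the first alpha subunit, by 0.13, Epas1, which encodes HIF-2α, by 0.02, the partner gene Arnt by 0.06 and the asparagine hydroxylase gene Hif1an by −0.05. Vhl, the ubiquitin ligase gene, was higher by 0.41 without overlap (adjusted p = 0.349). Of 12 oxygen sensor and HIF genes, 2 were called higher and 0 lower.

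Collagen hydroxylases shared this pattern in part. P4ha1, the catalytic subunit of the main collagen prolyl hydroxylase, had values of 7.92, 7.95 and 8.21 with DMSO and 9.43, 9.31 and 9.40 with AM73. The gap between the groups was several times the range within either of them, and P4ha1 rose by 1.35 ± 0.11 (adjusted p = 0.00549 in limma, 2.56-fold). P4ha2, its close relative, went from 5.0, 5.27 and 5.42 to 6.49, 6.32 and 6.45 (1.19 ± 0.12, adjusted p = 0.0148). P4ha3 differed by −0.32, with arrays that overlapped (adjusted p = 0.666). The lysyl hydroxylase genes Plod2 (1.11) and Plod1 (0.84) were higher on all 3 AM73 arrays and were not called, with adjusted p of 0.114 and 0.154. Of 16 genes of this list 2 were called, and the median was 0.11.

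Kdm3a, a jumonji demethylase of histone H3 that HIF is known to drive, read 6.63, 6.83 and 6.03 with DMSO and 8.19, 8.07 and 8.20 with AM73. DMSO replicate 3 was the lowest array here, and the 3 AM73 arrays lay close together above all DMSO arrays. Kdm3a rose by 1.66 ± 0.22 (adjusted p = 0.0282 in limma, 3.15-fold), while its relative Kdm3b differed by 0.15 (adjusted p = 0.804). Among 29 genes of the jumonji list this was the sole call. Of these 29, 12 (41.4%) lay higher and 1 lower without overlap, beside 5.71% and 6.87% of all genes, and the median was 0.13. Kdm4b (1.03), Kdm5a (0.76) and Jmjd6 (0.73) were the next by size, with adjusted p of 0.167, 0.476 and 0.0977. Taken with the EGLN, collagen hydroxylase and other dioxygenase genes, and without Kdm1a, Kdm1b and Jarid2, 5 of 61 genes of oxygen- and 2-oxoglutarate-using enzymes were called. The called share was 0.12% over all genes, and the grouping was made after the values were seen. The list of other oxygen-using dioxygenases, most of them counted in the 61, held 0 calls in 25 genes in limma and a median of 0.01. It includes the Tet DNA demethylases and Alkbh repair enzymes. Tet2 there differed by 0.77 (adjusted p = 0.335) and Alkbh5 by 0.60 (adjusted p = 0.322).

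**Figure D2:**
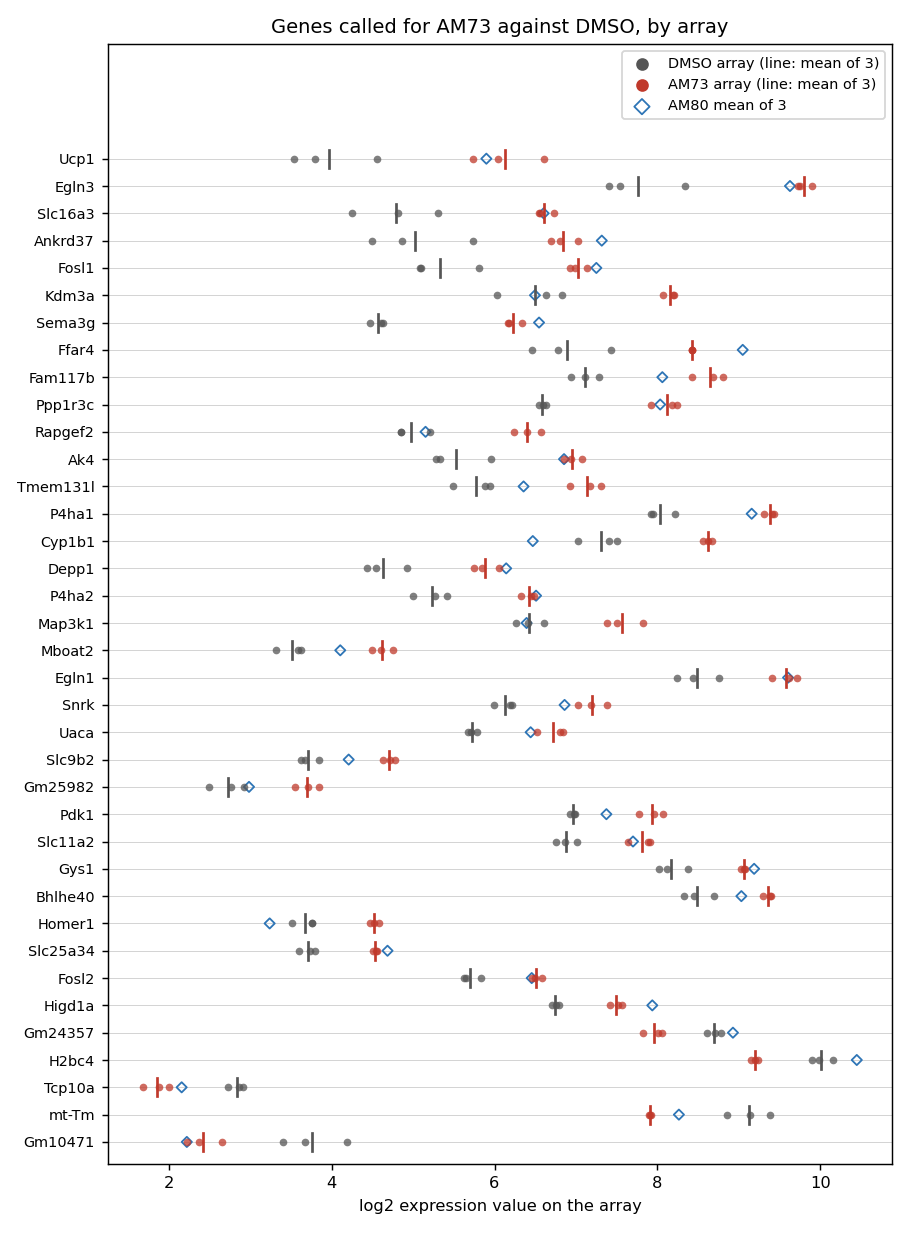
Log2 expression value (horizontal axis) of the 37 called genes (rows) on each of the 3 DMSO arrays (grey) and 3 AM73 arrays (red), with vertical lines at group means and a blue diamond at the mean of the 3 AM80 arrays. Red and grey points do not overlap in any row, and the blue diamond of Kdm3a, Cyp1b1, Map3k1 and Homer1 lies within or below the grey points.

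Genes that move glucose and its products rose at the exit and at single steps. Slc16a3, which exports lactate, had values of 4.25, 4.82 and 5.31 with DMSO and 6.73, 6.55 and 6.56 with AM73. It rose by 1.82 ± 0.23 (adjusted p = 0.0244 in limma, 3.53-fold), the largest difference among the 14 Slc16 genes, whose median was 0.11. Slc16a1, the other well-known lactate carrier, differed by 0.30 (adjusted p = 0.616). Slc2a1, the basal glucose transporter, read 7.86, 8.06 and 8.73 against 9.59, 9.44 and 9.47, higher on every AM73 array. The difference was 1.28 and missed the threshold (adjusted p = 0.0569). Among 30 glucose uptake, glycolysis and lactate genes 1 was called, and the median was 0.20. Of them 13 (43.3%) lay higher and 3 lower without overlap, beside 5.71% and 6.87% of all genes. Hexokinase 2 (Hk2, 0.57) and the regulatory enzyme gene Pfkfb3 (0.46) were among the 13, with adjusted p of 0.293 and 0.255. Pdk1, whose kinase closes the pyruvate dehydrogenase gate to mitochondria, read 6.97, 6.93 and 6.99 with DMSO and 7.96, 8.07 and 7.77 with AM73. It rose by 0.97 ± 0.11 (adjusted p = 0.0182), while Pdk2, Pdk3 and Pdk4 differed by −0.01, 0.05 and 0.17 with none called in limma. Of 14 genes at this pyruvate gate 1 was called, 1 lay higher and 4 (28.6%) lower without overlap, and the median was −0.115, with 11 negative differences.

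Glycogen synthesis held 2 called genes. Ppp1r3c, a scaffold that brings a phosphatase to glycogen and activates its synthesis, read 6.54, 6.63 and 6.59 with DMSO and 8.18, 8.24 and 7.92 with AM73. It rose by 1.53 ± 0.19 (adjusted p = 0.0241 in limma, 2.88-fold), and its 6 relatives in the Ppp1r3 family had differences up to 0.39. Gys1, the muscle and fat glycogen synthase, went from 8.02, 8.12 and 8.37 to 9.06, 9.03 and 9.08 (0.89 ± 0.12, adjusted p = 0.0282). Of 28 glycogen genes 8 (28.6%) lay higher and 1 (3.57%) lower without overlap, beside 5.71% and 6.87% of all genes, and the median was 0.19. Gsk3b (0.54), whose kinase inhibits glycogen synthase, was also among the higher ones (adjusted p = 0.494). Ak4, a mitochondrial adenylate kinase known as a HIF target, rose by 1.43 ± 0.17 from 5.28, 5.33 and 5.96 to 7.07, 6.94 and 6.85, and its 7 measured relatives Ak1 to Ak9 lay between −0.11 and 0.08.

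HIF targets outside glucose metabolism were the list with the highest median, 0.62 over 49 genes. Of these 6 were called higher (Ankrd37, Kdm3a, Ppp1r3c, Gys1, Bhlhe40 and Higd1a). Without overlap 33 (67.3%) lay higher and 1 lower, beside 5.71% and 6.87% of all genes, and 46 differences were positive. The lists overlap: Ppp1r3c and Gys1 are also the glycogen calls above, and Kdm3a the jumonji call. Leaving out each array in turn gave medians from 0.50 to 0.62, without DMSO replicate 3 the median was 0.60, and within end numbers 5 and 7 it was 0.67 and 0.60. Ankrd37, an ankyrin repeat gene, had values of 4.50, 4.86 and 5.73 with DMSO against 7.02, 6.81 and 6.69 (1.81 ± 0.26, adjusted p = 0.0438), and DMSO replicate 3 was close to a full log2 unit below the AM73 arrays. Higd1a, a small mitochondrial protein of the hypoxia response, rose by 0.75 ± 0.11 (adjusted p = 0.0404). Bhlhe40, a repressor that also acts in the circadian clock, went from 8.32, 8.45 and 8.70 to 9.39, 9.38 and 9.29 (0.86 ± 0.12, adjusted p = 0.0343). Its relative Bhlhe41 differed by 0.11 (adjusted p = 0.900). Not called but higher on all AM73 arrays were Ndrg1 (1.70, adjusted p = 0.107), the vasodilator peptide gene Adm (1.15, adjusted p = 0.109), the calcium hormone gene Stc1 (1.21, adjusted p = 0.138) and the mitophagy receptor gene Bnip3 (0.96, adjusted p = 0.0922).

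**Figure D3:**
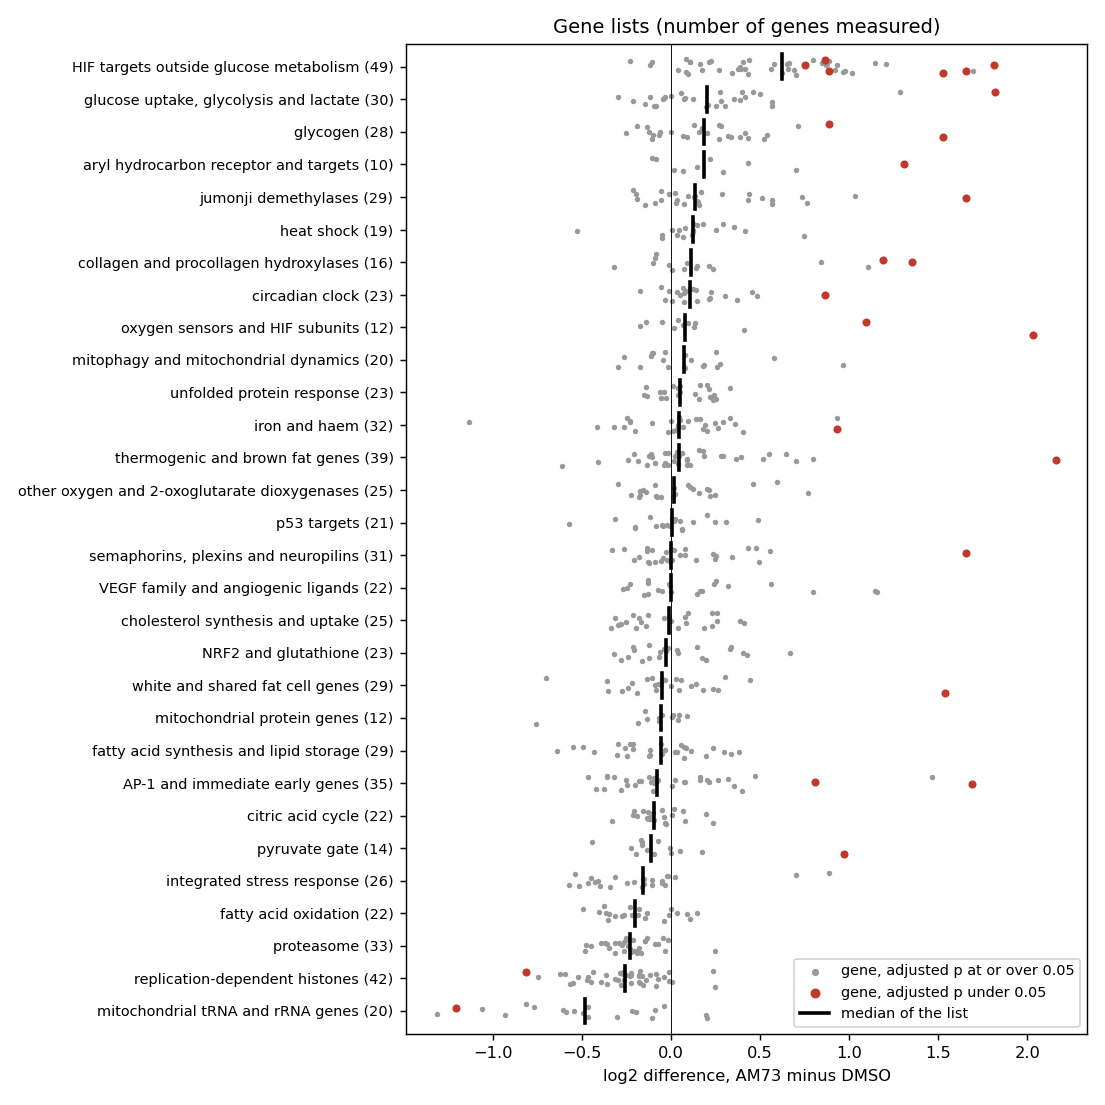
Differences AM73 minus DMSO (horizontal axis, log2) for the genes of each list (rows, sorted by median, number measured in brackets). Grey points are genes not called, red points genes called, and black bars list medians, which run from −0.48 for mitochondrial tRNA and rRNA genes to 0.62 for HIF targets outside glucose metabolism.

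Genes of secreted signals were examined next. Vegfa, the main vessel growth factor, had values of 9.56, 9.51 and 9.60 against 10.22, 10.10 and 10.03, a difference of 0.56 that was not called (adjusted p = 0.0927). Apln, a vessel peptide, differed by 1.16 (adjusted p = 0.0709). Of 22 VEGF family and angiogenic ligand genes 0 were called in limma and the median was −0.003. Sema3g, a secreted semaphorin made by vessels and fat cells, had the smallest adjusted p of all genes. It read 4.47, 4.63 and 4.61 with DMSO and 6.18, 6.34 and 6.16 with AM73, and rose by 1.66 ± 0.12 (adjusted p = 0.00394, 3.15-fold). The 6 other class 3 semaphorins differed by −0.18 to 0.25 with none called in limma.

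Of the heat-producing genes, Ucp1 alone was called, with the largest rise among the called genes. Ucp1 read 3.54, 3.80 and 4.56 with DMSO and 6.61, 6.04 and 5.74 with AM73, so DMSO replicate 3 lay nearest to the AM73 arrays and the AM73 arrays spread more than in most risers. It rose by 2.16 ± 0.28 (adjusted p = 0.0256 in limma, 4.48-fold, 95% interval 1.54 to 2.78), and its relatives Ucp2 and Ucp3 differed by −0.11 and −0.04. Of 39 thermogenic and brown fat genes 8 (20.5%) lay higher and 2 (5.13%) lower without overlap, beside 5.71% and 6.87% of all genes, and their median was 0.04. Ppargc1b (0.55), the lipid droplet gene Cidea (0.70) and the brown fat transcription factor gene Ebf2 (0.65) were higher on all AM73 arrays without a call, with adjusted p of 0.657, 0.612 and 0.425. Ppargc1a differed by −0.24 (adjusted p = 0.796), Esrra by −0.13, Pparg by 0.03, Dio2 by 0.09 and Fgf21 by −0.41. Elovl3, which lengthens fatty acids in brown fat, was lower by 0.61 without overlap (adjusted p = 0.407). Ffar4, a receptor for long-chain fatty acids, rose from 6.46, 6.78 and 7.43 to 8.43 on each AM73 array (1.54 ± 0.21, adjusted p = 0.0400). The free fatty acid receptor genes Ffar1, Ffar2 and Ffar3 differed by 0.14, −0.36 and −0.14. Of 29 white and shared fat cell genes Ffar4 was the sole call, 3 (10.3%) lay higher and 5 (17.2%) lower without overlap, and the median was −0.05, with 17 negative differences.

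Fosl1, an AP-1 subunit, read 5.10, 5.09 and 5.81 with DMSO and 7.14, 6.93 and 6.99 with AM73, and rose by 1.69 ± 0.18 (adjusted p = 0.0165, 3.22-fold). Fosl2 rose by 0.81 ± 0.12 (adjusted p = 0.0412), the other gene of the pair. Among 35 AP-1 and immediate early genes these were the 2 calls, and the median was −0.08, while Atf3 (−0.47, adjusted p = 0.630) and Jun (0.47, adjusted p = 0.453) lay on opposite sides. A further 4 called genes rose: Rapgef2, an activator of the small GTPase Rap1, by 1.43 ± 0.18, the stress kinase gene Map3k1 by 1.14 ± 0.15, the sucrose non-fermenting related kinase gene Snrk by 1.06 ± 0.13 and the synaptic scaffold gene Homer1 by 0.85 ± 0.12, all called in limma with adjusted p between 0.0241 and 0.0404. The 17 other Map3k genes had differences up to 0.50.

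Cyp1b1, a steroid and xenobiotic oxidase that the aryl hydrocarbon receptor induces, read 7.50, 7.40 and 7.03 with DMSO and 8.67, 8.56 and 8.62 with AM73. It rose by 1.31 ± 0.14 (adjusted p = 0.0165 in limma, 2.47-fold), and DMSO replicate 3 was the lowest array. Cyp1a1, the textbook target of the same receptor, differed by 0.43 with overlap (adjusted p = 0.633). Over 10 genes of that receptor and its targets the median was 0.18. Slc11a2, the iron importer of the endosome, rose by 0.93 ± 0.13 from 6.76, 6.87 and 7.01 to 7.64, 7.91 and 7.89 (adjusted p = 0.0377). The transferrin receptor gene Tfrc differed by 0.93 (adjusted p = 0.316) and the iron hormone gene Hamp by −1.13 (adjusted p = 0.284). Of 32 iron and haem genes 1 was called, and the median was 0.05.

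The remaining called risers belong to no list. Fam117b rose by 1.53 ± 0.16, Tmem131l by 1.37 ± 0.19, Depp1, a gene known to respond to FoxO factors, by 1.25 ± 0.18, and the lysophospholipid acyltransferase gene Mboat2 by 1.11 ± 0.13. Uaca, the sodium-proton exchanger gene Slc9b2 and the mitochondrial carrier gene Slc25a34 rose by 0.99 ± 0.11, 0.99 ± 0.10 and 0.82 ± 0.10. Among the 47 Slc25 genes Slc25a34 was the sole call, with a median of 0.003. Adjusted p of these 7 ran from 0.0148 to 0.0412 in limma. Outside the calls, the largest differences were in Prl2c2 (2.34) and Prl2c3 (2.30), near-identical prolactin family genes whose probes cross-hybridise and that cannot be told apart here. Both had an adjusted p of 0.0939. Other uncalled rises without overlap included Ier3 (1.47, adjusted p = 0.0939), Peg10 (1.43, 0.122) and Cdc42bpa (1.22, 0.122) in limma. Uncalled falls without overlap included mt-Ty (−1.31, adjusted p = 0.357), Ccn1 (−1.19, 0.0834) and Tmem45b (−0.97, 0.0812) in limma.

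Of the 5 genes that fell, 3 carry a plain symbol. H2bc4, a replication-dependent histone gene, had values of 10.16, 9.90 and 9.98 with DMSO and 9.20, 9.15 and 9.24 with AM73. The AM73 arrays lay close together below DMSO, and the gene fell by 0.82 ± 0.10 (adjusted p = 0.0243 in limma), though its copies share nearly identical sequence. Of 42 replication-dependent histone genes measured, 0 lay higher and 16 (38.1%) lower without overlap, beside 5.71% and 6.87% of all genes. Their median was −0.26, and under scaling to the poly-A controls it was 0.03. Scaling to these controls shifts every gene's difference by the same amount, and the median of all genes was then 0.26. The mitochondrial tRNA gene mt-Tm, for methionine, read 9.13, 9.38 and 8.85 with DMSO and 7.91, 7.90 and 7.92 with AM73, and fell by 1.21 ± 0.16 (adjusted p = 0.0282). Of 20 mitochondrial tRNA and rRNA genes 12 (60%) lay lower and 0 higher without overlap, and the median of −0.48 remained negative under that scaling (−0.20). The median over 12 mitochondrial protein genes was −0.06, with the light-strand gene ND6 lowest (−0.76, adjusted p = 0.118). Tcp10a fell by 0.98 ± 0.11 (adjusted p = 0.0165), but it was dim (mean 2.83 with DMSO and 1.86 with AM73) and its probes cross-hybridise. Under poly-A scaling the 3 falls were 0.53 (H2bc4), 0.92 (mt-Tm) and 0.69 (Tcp10a) below DMSO, with adjusted p of 0.648, 0.182 and 0.471 and no call.

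Gene families defined by the letters before the first digit of their symbols, with at least 8 genes above the dim level, gave 244 groups. Their medians ran from −0.25 to 0.29, and 170 lay within 0.1 of 0. The lowest were the proteasome subunits Psmb (−0.25 over 11 genes) and Psmd (−0.205 over 14) and the respiratory complex I subunits Ndufa (−0.24 over 14) and Ndufs (−0.18 over 8). Next came the T cell receptor segments Traj (−0.22), the prolyl isomerases Fkbp (−0.20) and the small nuclear and nucleolar RNAs Scarna and Snord (−0.18 each). All 8 of these medians turned positive when arrays were scaled to the poly-A controls, from 0.03 to 0.11. With that scaling, which shifts every gene alike, the median of all genes was 0.26, still above these 8. Medians of the highest families move up by the same amount. Psmb3 (−0.49, adjusted p = 0.516) and Ndufa7 (−0.37, adjusted p = 0.683) were among the members that lay lower without overlap. At the other end stood the histone methyltransferases Kmt (0.29), the multidrug transporters Abcc (0.245), the chromatin remodellers Chd (0.24), the zinc finger genes Zkscan (0.24), the methyltransferases Setd (0.235), the chromosome structure genes Smc (0.23), the lipoprotein receptors Lrp (0.21) and the ubiquitin ligase adaptors Dcaf (0.18). Kmt2e (0.54), Chd6 (0.63) and Lrp5 (0.51) were their members of largest size, with adjusted p of 0.689, 0.651 and 0.507. None of these 16 families held a call in limma. Of the 8 genes with an Smc symbol 0 lay higher and 1 lower without overlap, the opposite-strand transcript gene Smc2os (−0.07). The Smc median was 0.06 without DMSO replicate 3 and 0.42 without DMSO replicate 1. Of the 9 Scarna genes 2 (22.2%) lay higher and 0 lower without overlap, and of the 69 Snord genes 0 and 14 (20.3%). Among all genes above the dim level, 7.60% lay higher and 8.07% lower without overlap. The Scarna median was −0.09 without DMSO replicate 3 and −0.04 without AM73 replicate 1. Without DMSO replicate 3 the medians of Psmb, Snord, Chd, Zkscan and Dcaf were −0.16, −0.11, 0.14, 0.135 and 0.04, that of Dcaf was 0.03 without DMSO replicate 1, and that of Zkscan 0.16 without AM73 replicate 1. By protein domain, the glycosyltransferase domain IPR001296 had the highest median, 0.49 over 8 genes including Gys1, and the HECT ubiquitin ligase domain IPR000569 was positive in 12 of 12 genes, with a median of 0.26.

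**Figure D4:**
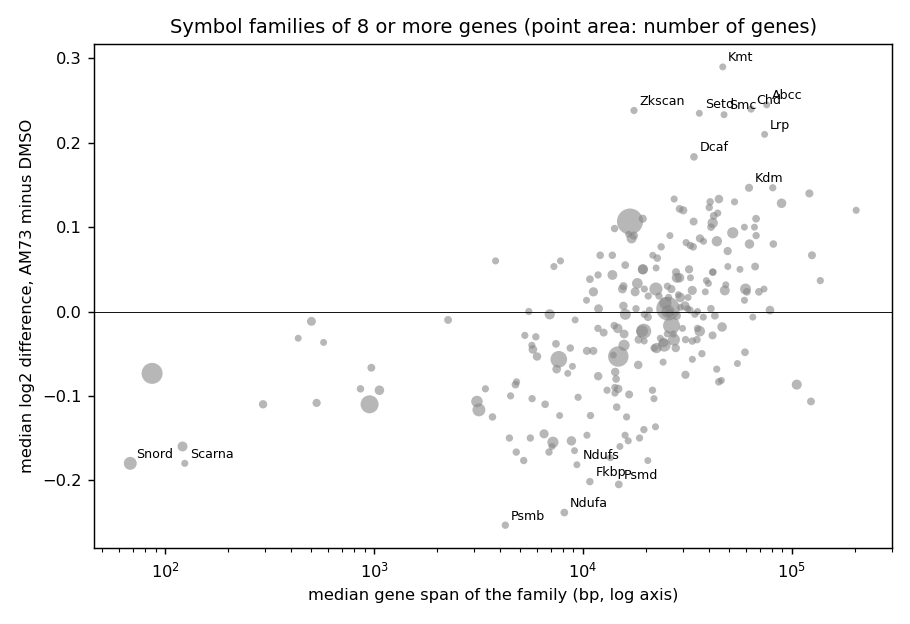
Median difference AM73 minus DMSO (vertical axis, log2) of each symbol family with at least 8 genes above the dim level, against the median gene span of the family in bp (horizontal axis, log scale), where point area gives the number of genes. Some families of short genes, such as Psmb and Snord, lie low and some of long genes, such as Kmt and Abcc, lie high. Exceptions include the long-gene families Cdh (−0.11) and Col (−0.09) and the high family Zkscan, with a median span of 17544 bp. Families without a span in the reference, such as Traj, are not drawn.

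Gene span moved with these family values in part. Over 5 bins of 3192 genes each from shortest to longest, the median difference was −0.09, −0.06, −0.01, 0.03 and 0.08. The share of genes higher without overlap went from 3.13% to 15.3% and the share lower from 11.1% to 3.76%. Without DMSO replicate 3 these medians were −0.05, −0.04, −0.01, 0.01 and 0.03. Within end number 5 they were −0.06, −0.05, −0.01, 0 and 0.04, and within end number 7 −0.095, −0.065, −0.005, 0.035 and 0.10. The 3 AM73 arrays in the plot by span share the same DMSO mean, so their lines are not independent. DMSO replicate 3 departed from the other DMSO arrays in the opposite sense, by 0.09, 0.075, 0.025, −0.035 and −0.11. Called genes lay in all bins, 4, 9, 4, 9 and 7 from shortest to longest. The part of gene span, or of DMSO replicate 3, in the family medians was not tested.

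**Figure D5:**
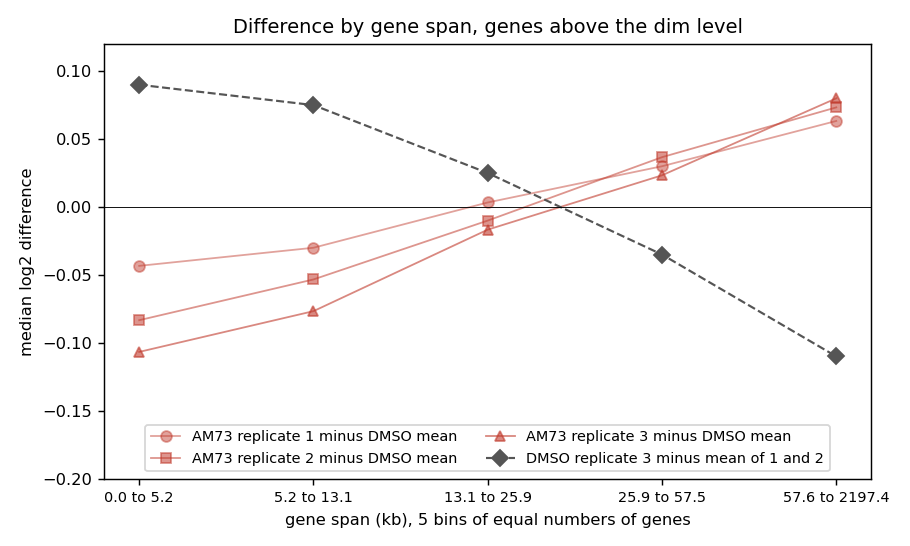
Median log2 difference (vertical axis) in 5 bins of gene span (horizontal axis, kb), for each AM73 array against the DMSO mean (red) and for DMSO replicate 3 against the other DMSO arrays (grey dashes). The red lines rise from left to right and the grey line falls.

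Fatty acid oxidation, proteasome, integrated stress response and lipid storage genes held 0 calls in limma. For scale, 5.71% of all genes lay higher and 6.87% lower without overlap. Fatty acid oxidation had a median of −0.20, with 11 of 22 genes (50%) lower and 2 higher without overlap, among them Acot2 (−0.49, adjusted p = 0.357) and Slc25a20, the carnitine carrier gene (−0.38, adjusted p = 0.616). Proteasome subunits had a median of −0.23, with 18 of 33 lower and 1 higher. The integrated stress response had −0.16, with 9 of 26 lower and 2 higher. Nupr1 (−0.54, adjusted p = 0.0939) led those that lay lower, while the list's member Ddit4, which HIF also drives, was higher by 0.89 (adjusted p = 0.388). With poly-A scaling these medians were 0.08, 0.05 and 0.13, so their sign depends on whether that scaling is used. The poly-A controls had their lowest array median on AM73 replicate 3 (4.08), against 4.35 to 4.83 on the other DMSO and AM73 arrays. That scaling shifts every gene's difference by the same amount, and these medians stayed below that of all genes (0.26). Lipid storage genes had a median of −0.06, with 10 of 29 lower (34.5%) and 4 higher (13.8%). Among the lower was the lipogenic regulator Thrsp, from 11.28, 11.34 and 11.28 to 10.78, 10.72 and 10.74 (−0.55, adjusted p = 0.138). Unfolded protein response, p53, NRF2 and cholesterol genes had medians of 0.05, 0.003, −0.03 and −0.01 with 0 calls in limma, where the whole table held 2363 genes at an unadjusted p under 0.05.

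AM80 values, from the same fit and at the same dose and time, separate the risers. Since the AM73 arrays serve in both comparisons, the values are given side by side. All AM80 arrays end in 5, so end number 7 offers no comparison of the compounds. Within end number 5 the 3 AM80 arrays stand against 1 AM73 array, so no count is given there. Of the 37 genes, 14 also differed between AM80 and AM73 in limma (5907 of all genes, 19.1%), 11 with AM80 lower and 3 with AM80 higher. Cyp1b1 lay at 6.47 with AM80 against 8.62 with AM73 and 7.31 with DMSO (AM80 minus AM73 −2.15, adjusted p = 0.000641). Kdm3a lay at 6.50 with AM80 against 8.15 and 6.50, Map3k1 at 6.39 against 7.57 and 6.43, Homer1 at 3.24 against 4.52 and 3.68, and Rapgef2 at 5.15 against 6.40 and 4.97. Fam117b, Tmem131l, Mboat2, Slc9b2 and Pdk1 had AM80 means between the DMSO and AM73 means. Higd1a and H2bc4 were higher with AM80 than with AM73, by 0.44 (adjusted p = 0.0164) and 1.25 (adjusted p = 0.000641). For Ucp1 (−0.23), Egln3 (−0.17), Slc16a3 (−0.01) and P4ha1 (−0.22) the difference between the compounds missed the threshold, with adjusted p of 0.643, 0.661, 0.985 and 0.221, which does not show that they act alike.

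The authors' deposited table gives a different selection. At the deposited p under 0.05 it holds 2014 of the genes tested here, the 37 among them, whereas its q-value was between 0.156 and 0.491 for the 37. The authors' deposited table has a q under 0.05 for 3 genes, 2210407C18Rik, Il4ra and Nus1, each with a q of 0.0266. Their arrays were almost equal within groups, as in Nus1 with 7.66, 7.66 and 7.65 against 7.87, 7.88 and 7.87. The limma differences of these genes were −0.12, 0.30 and 0.22, with adjusted p of 0.877, 0.507 and 0.683.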

How the data were processed

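RNA of cultured mouse brown fat cells was measured on Affymetrix whole-transcript arrays from 100 ng of total RNA, per the labels' protocols. The deposited log2 values were made by the authors with Affymetrix Expression Console 1.41, by RMA. The annotation was NetAffx build 35 and the genome mm10, per the file headers and the submitters' processing notes. The authors' deposited comparison table also gives linear group averages in intensity units, signed folds as a score, and p-values and q-values.

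Of 33793 gene features 32202 carried a symbol. Symbols were updated by Entrez identifier, and 1 feature per symbol was kept, the brightest on average, leaving 30860 genes. The differences come from linear models with moderated variances (limma 3.58.1, R 4.3.3) on all 9 arrays, with 6 residual degrees of freedom, two-sided, Benjamini-Hochberg over all genes and a threshold of 0.05. Errors after ± are standard errors of the fit and intervals are 95%. On simulated data 72% of genes changed by 1 and 97% of those changed by 2 on the log2 scale were recovered, with 13 false calls among 30860 genes. The simulated noise was independent between genes and arrays, without effects shared by a whole array. These rates therefore check the code and need not hold for the real arrays. Python 3.11.15, pandas 2.3.3 and matplotlib 3.10.9 were used for counts and figures, and promoters came from RefSeq (GRCm38.p6).

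The comparison, the gene lists and the grouping rules were chosen with earlier results of these data known. Named are all called genes except predicted genes (Gm with a number, Rik, Mir and similar), the 15 largest rises and falls among genes that did not overlap and were not called, 12 genes of thermogenesis and oxygen sensing, up to 5 members of each list by size, and members of the 8 highest and 8 lowest families. A few further list members are given for their role. The number of arrays limits the precision. Alternatives were other scalings, filters, models and subsets of arrays.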

Additional observations from a re-analysis of the deposited data

How the results depend on the processing

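The number of calls depended on the setting. The counts of higher and lower genes, 32 and 5, were 123 and 1 with scaling to the poly-A controls, 88 and 19 with array weights, 16 and 2 with the end number as a term, 11 and 0 with bright background probes as covariate, 4 and 0 in an ordinary linear model, and 2 and 0 with only the DMSO and AM73 arrays. The fit within end number 7 gave 0 and 0, with 1804 genes at an unadjusted p under 0.05 in limma. Within end number 5, with 1 DMSO and 1 AM73 array, calls are not counted. The methods' t-test and the authors' deposited q-value each gave 2 and 1, none of them among the 37. The count of genes that also differed between AM80 and AM73, 14, was 34 with poly-A scaling and 0 with the bright background probes. Leaving out each array in turn gave 0 to 34 higher, 0 to 5 lower and 12 to 15 that also differed between the compounds. With the replicate block 6 genes were higher and 0 lower, and 4 of the 37 passed. The replicate numbers did not pair the arrays, since same-numbered DMSO and AM73 arrays had correlations of their deviations of −0.04, −0.01 and −0.12. Poly-A scaling shifts every gene's difference by the same amount and moved the median of all genes from −0.02 to 0.26. Centring on array medians moved it to 0.03. The poly-A controls read lowest on AM73 replicate 3 (array median 4.08). The cause of these differences was not tested.

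Genes whose difference changed sign were all uncalled and close to 0. Leaving out each array in turn, Dio2 ran from −0.155 to 0.255, Epas1 from −0.105 to 0.08, Hif1a from −0.107 to 0.273 and Pparg from −0.09 to 0.16, where Epas1, Hif1a and Pparg were lowest without DMSO replicate 3. Epas1 was −0.0283 with quantile normalization again, −0.100 with the bright background probes and −0.0258 with array weights. Esrra was 0.15 with poly-A scaling and 0.13 within end number 5. Hif1a was −0.03 within end number 5 and −0.177 with the bright background probes. Pparg was −0.0934 with the bright background probes, and Ppargc1a 0.0433 with poly-A scaling. For dim genes such as Tcp10a the signal over background limits the measurement.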

Other observations

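Among 1591 array features without a gene symbol, 56 lay higher and 94 lower with AM73 without overlap. Both shares were below those of all genes with a symbol (5.71% and 6.87%). Of these features 0 were called in limma, where the smallest adjusted p was 0.0678. Genes with an adjusted p from 0.05 to 0.10 numbered 38, of which 30 were higher and 8 lower. DMSO replicate 3 was the highest DMSO array in 20 of the 32 risers and the lowest in 6.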
